A study of Homo sapiens with 4 samples.

Results

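The mitochondrial genome of human cells is a small circle that carries the genes for 13 mRNAs, 2 rRNAs and 22 tRNAs, and these 37 genes were taken as every row of the count table whose symbol begins with MT-, of 56271 rows in all. RNA was measured by poly-A-enriched sequencing in SKBR3, an established HER2-positive breast cancer cell line, in 2 eGFP control libraries and 2 VIRMA-overexpressing libraries. Control cells were transduced with a lentivirus expressing eGFP alone, and the VIRMA-overexpressing cells with one expressing HA-tagged full-length VIRMA together with eGFP, in both cases from a ubiquitin C promoter. The cells were sorted for eGFP and expanded, so each group is a population and not a single clone. The labels of every library mention a low-oxygen chamber, whereas the methods of the study give no such treatment for RNA sequencing. The oxygen level of the cultures is therefore not known, and both groups carry the same text. VIRMA is a scaffold of the nuclear complex that places N6-methyladenosine (m6A) on RNA, and the comparison asks which transcripts differ when it is raised.

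Both strands of the mitochondrial genome are transcribed into long RNAs by the RNA polymerase POLRMT, and most mRNAs and the rRNAs are released when the tRNAs that lie between them are cut out at their ends. The mRNAs encode core subunits of respiratory complex I (NADH dehydrogenase), complex III (cytochrome bc1), complex IV (cytochrome c oxidase) and complex V (ATP synthase), and the rRNAs and tRNAs serve the ribosomes that translate them inside the organelle. All other subunits of these complexes, and all proteins that copy, transcribe and process the mitochondrial genome, are made from nuclear genes and imported. Because adenine tails are added to mitochondrial mRNAs, poly-A-enriched libraries hold them, whereas mature tRNAs and the complex I mRNA MT-ND6 are known to lack long tails.

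The genes are packed end to end. On the mitochondrial genome of GRCh38 (16569 bases) they covered 15358 bases, or 92.7%, with 28 genes on the plus strand and 9 on the minus strand, and the start, end and strand of 37 of 37 were those of the GENCODE annotation. None of them has introns. Of the 13 mRNA genes, 7 ended in a complete stop codon and 6 ended in its first base or its first 2 bases, so that the stop is finished only by the adenine tail. The last 15 bases of each kind are shown because the tail that completes the stop is also what poly-A enrichment binds, and capitals mark the stop codon or the part of it that the genome encodes.
MT-ND1: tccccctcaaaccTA
MT-ND2: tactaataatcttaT
MT-CO3: attgatgagggtctT
MT-ND4: ccgggttttcctctT
MT-CYB: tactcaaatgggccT
MT-CO1: tacataaaatctAGA
MT-CO2: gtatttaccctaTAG
MT-ND5: ctcctaatcacaTAA
MT-ND6: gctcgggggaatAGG

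Neighbouring genes also shared bases at 5 borders. The longest shared stretch, 46 bases of chrM:8527-8572, belongs to both complex V genes, and the next, 7 bases of chrM:10760-10766, to a pair of complex I genes. MT-ND5 (chrM:12337-14148, plus strand) and MT-ND6 (chrM:14149-14673, minus strand) meet tail to tail with no base between them. The plus strand across these 3 borders is shown because reads there can belong to more than one gene, with 15 bases on either side of the shared stretch or of the meeting point. Capitals mark the shared bases in the first pair of lines, and in the last the stop codon of MT-ND5 followed by that of MT-ND6 read on the other strand.
MT-ATP8 and MT-ATP6: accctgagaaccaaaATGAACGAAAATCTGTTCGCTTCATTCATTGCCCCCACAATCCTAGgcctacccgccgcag
MT-ND4L and MT-ND4: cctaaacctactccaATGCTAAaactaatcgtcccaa
MT-ND5 and MT-ND6: ctcctaatcacaTAACCTattcccccgagc

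The libraries held 81446932 to 86375474 counts. VIRMA, listed as KIAA1429, had 710 and 682 counts in the eGFP control and 3437 and 3460 in the VIRMA-overexpressing libraries (log2 fold change 2.29 ± 0.07, SE; edgeR adjusted p = 9.74e-26), and leaving out any library kept it between 2.25 and 2.32. KIAA1429 passed the filter on low values only through the VIRMA-overexpressing libraries. The summed level of 6 markers of SKBR3 identity was 26516 and 26077 CPM (counts scaled to a common library size) in the controls. After VIRMA overexpression it was 23580 and 23752 CPM. Of these markers 2 were higher and 3 lower, beside 35.1% and 35.9% of all genes tested. The keratin gene KRT8 changed by the most (-0.51 ± 0.02; edgeR adjusted p = 1.70e-22). ERBB2, the HER2 gene, had -0.0011 ± 0.02 (edgeR adjusted p = 0.963). The 13 blood cell markers summed to 26.8 to 36.02 CPM among the controls and to 6.28 to 6.58 CPM after VIRMA overexpression, mainly through the haemoglobin gene HBB, which was at 0 counts in both VIRMA-overexpressing libraries; PTPRC, the pan-leukocyte gene, was at 0 to 0.279 CPM. The part of these differences in the results was not tested. The 7 stromal and endothelial markers summed to 16.5 to 21.6 CPM. Any difference between the cell populations of the groups that is not due to VIRMA cannot be told apart from its effect.

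Mitochondrially encoded genes took a larger share of the VIRMA-overexpressing libraries. They held 11.4% and 11.6% of all counts in the controls and 12.8% in each VIRMA-overexpressing library, a difference of 1.34 percentage points between the group means. The 95% Wilson interval of each share was within 0.00726 percentage points of it, which covers counting error only. Both VIRMA-overexpressing libraries lay above both controls, but 2 libraries against 2 cannot give an exact two-sided permutation p below 0.333. The share rests on library totals, by which the median log2 fold change over all genes tested was 0.0977. With TMM, the scaling used for the tests, the summed mitochondrial level rose by 0.0759 on the log2 scale. In bulk RNA, a different number of cells of a kind, of genomes per cell and of transcripts per genome cannot be told apart.

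Among the 3 classes, only the mRNAs took a smaller part of that share after VIRMA overexpression. Of the mitochondrial counts, the rRNAs took 5.86% and 5.89% in the controls, against 7.43% and 7.44% in the VIRMA-overexpressing libraries. The mRNAs took 93.5% in both controls and 91.9% in both VIRMA-overexpressing libraries. The tRNAs took 0.622% and 0.649% in the controls, against 0.673% and 0.683% in the VIRMA-overexpressing libraries, so for each class the groups did not overlap.

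Among the mRNAs, those of complex IV took more of the mitochondrial counts and those of the other complexes less. Complex IV held 47.3% and 47.0% in the controls, against 49.2% and 49.1% in the VIRMA-overexpressing libraries. Complex I went from 33.7% and 34.2% to 31.3% and 31.6%, and complex V from 7.68% and 7.36% to 6.83% and 6.63%. Complex III, which has 1 mitochondrial gene, went from 4.90% and 4.88% to 4.61% and 4.58%. The groups did not overlap for any of the 4 complexes, and these shares depend on each other because they add to a whole.

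**Figure D1:**
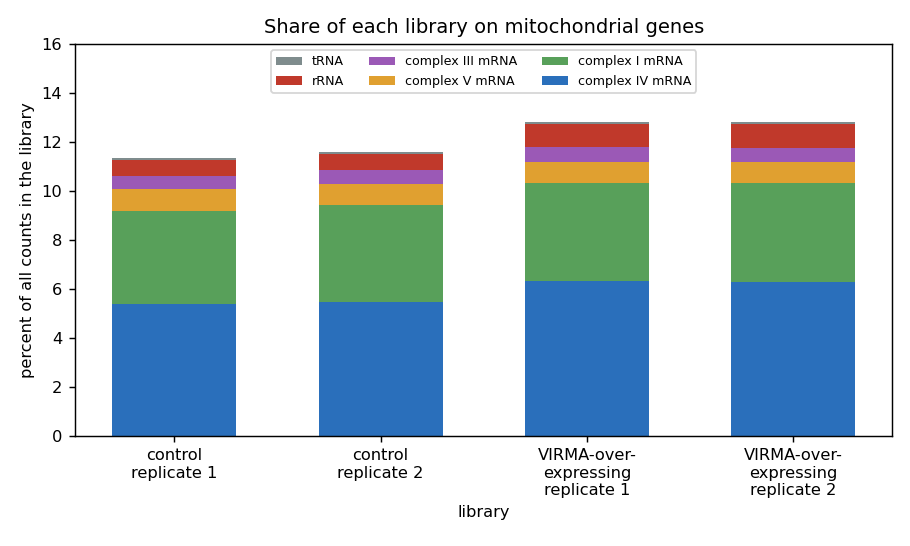
Stacked bars give the percent of all counts in each of the 4 libraries that fell on mitochondrial mRNAs of complexes I, III, IV and V, on rRNAs and on tRNAs. The bars reach 11.4% and 11.6% in the eGFP controls and 12.8% in both VIRMA-overexpressing libraries. On this scale the segments of complexes I, III and IV, of rRNAs and of tRNAs were larger in both VIRMA-overexpressing libraries than in both controls. The groups overlapped for complex V.

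Gene by gene, the changes were small and went both ways. All 37 genes passed the filter on low values. With TMM scaling, 7 were higher in VIRMA-overexpressing cells and 11 lower at an edgeR adjusted p below 0.05, and 19 did not pass; of all 12205 genes tested, 35.1% were higher and 35.9% lower, so both shares of the mitochondrial genes were below those of all genes. Without control replicate 2 the count lower was 7 and the count higher 10, and without VIRMA-overexpressing replicate 2 they were 7 and 8. The balance also depended on the scaling, with 13 higher and 6 lower by library totals and 12 and 6 by upper-quartile factors. These scalings moved all genes up by a median of 0.0857 and 0.0715, so the move is not particular to mitochondrial genes. The shares of all genes called under them are not given here. Past a log2 fold change of 1 as well, the threshold of the study, there was 1 mitochondrial gene, against 7.46% of all genes tested. The groups did not overlap for 21 of the 37, against 84.3% of all genes tested.

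The classes differed in their counts. Of the 13 mRNAs 4 were higher and 5 lower with a median log2 fold change of -0.01, both rRNAs were higher with a median of 0.30, and of the 22 tRNAs 1 was higher and 6 lower with a median of -0.13; the median over all tested genes was 0.01. Without control replicate 2 or VIRMA-overexpressing replicate 2 the count of lower tRNAs was 3, and without any one library the count of higher tRNAs was 2. The median of the mRNAs changed sign with the scaling, to 0.07 with library totals and 0.06 with upper-quartile factors. The 4 mRNAs that rose were MT-ND2, MT-ND4, MT-CO1 and MT-CO2, and the 5 that fell were MT-ND5, MT-ND6, MT-CO3, MT-ATP6 and MT-ATP8. Relative to the summed mitochondrial counts, which sets the larger share aside, 4 genes were higher and 14 lower, against 28.9% and 40.7% of all genes tested under that scaling. With TMM scaling, of the 6 mRNAs with an incomplete stop 2 were higher and 1 lower, and of the 7 with a complete stop 2 were higher and 4 lower. Of all genes tested, 35.1% were higher and 35.9% lower under that scaling. These are few genes, and a link to the stop or the tail was not tested.

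Levels between genes were compared per length, as RPKM (CPM divided by the length of the gene in kilobases). Among mRNAs and rRNAs the control mean ran from 1327 RPKM for the small rRNA MT-RNR1 to 23220 RPKM for the complex IV mRNA MT-CO1. The order in the controls was MT-CO1, MT-CO2, MT-ND4, MT-ATP6, MT-ND4L, MT-CO3, MT-ND3, MT-CYB, MT-ND5, MT-ND6, MT-ND2, MT-RNR2, MT-ND1, MT-ATP8 and MT-RNR1. Several neighbours in it overlapped between the control libraries: MT-ND4 with MT-ATP6, MT-ND3 with MT-CYB, MT-ND5 with MT-ND6, and MT-ATP8 with MT-RNR1. In the VIRMA-overexpressing libraries MT-RNR2 stood above MT-ND5, MT-ND6 and MT-ND2, all of which it lay below in the controls, and it was close to MT-CYB.

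**Figure D2:**
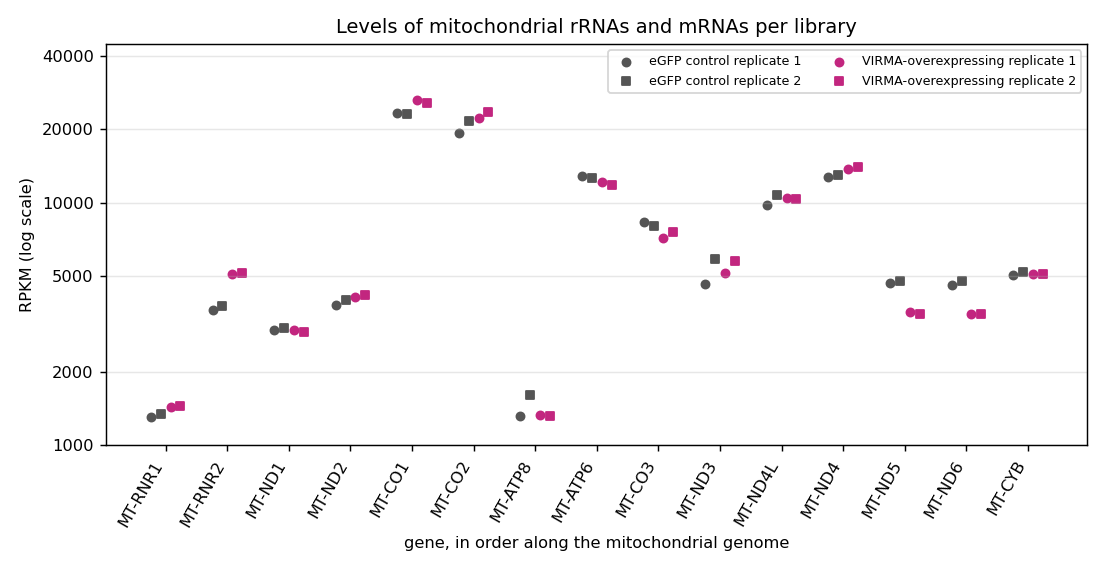
Each point is the RPKM of a gene in a library, on a log axis, for the 15 rRNA and mRNA genes in genome order; grey points are eGFP control and pink points VIRMA-overexpressing, circles replicate 1 and squares replicate 2. The pink points lie apart and above for MT-RNR2 (5097 and 5124 against 3625 and 3744 RPKM) and apart and below for MT-ND5 and MT-ND6, while the replicates of MT-ND3 and MT-CO2 are spread widely.

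The rRNAs form the cores of the small and large mitochondrial ribosomal subunits, and the counts of the large one rose the most of the long transcripts. In poly-A-enriched libraries, a different amount of an rRNA and a different capture of it cannot be told apart. MT-RNR2 (chrM:1671-3229) had 3625 and 3744 RPKM in the controls and 5097 and 5124 RPKM in the VIRMA-overexpressing libraries. That is a log2 fold change of 0.47 ± 0.02 (1.39-fold; edgeR adjusted p = 5.27e-21). MT-RNR1 (chrM:648-1601), the small subunit rRNA, had 1304 and 1351 RPKM in the controls and 1445 and 1447 RPKM in the VIRMA-overexpressing libraries. Its groups did not overlap either, and it rose by a log2 fold change of 0.12 ± 0.03 (edgeR adjusted p = 5.94e-05). Relative to the mitochondrial sum MT-RNR2 still rose, by 0.40 ± 0.03 (edgeR adjusted p = 1.08e-13), and MT-RNR1 had 0.05 ± 0.03 (edgeR adjusted p = 0.18).

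The rRNAs lie next to each other with only the gene for tRNA-Val (MT-TV) between them, and their ratio differed between the groups without overlap. MT-RNR2 stood at 2.78 and 2.77 times the per-length level of MT-RNR1 in the controls and at 3.53 and 3.54 times in the VIRMA-overexpressing libraries. Against MT-ND1, the next mRNA downstream, the ratio was 1.21 and 1.22 in the controls, against 1.71 and 1.74 in the VIRMA-overexpressing libraries. In both ratios the groups were far apart beside their spread, and the exact two-sided permutation p was 0.333, the smallest that 2 against 2 can give. Such ratios within a library show unequal change and do not depend on the scaling between libraries.

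The 7 complex I mRNAs did not move together. MT-ND5 fell from 4648 and 4745 RPKM in the controls to 3529 and 3486 RPKM, a log2 fold change of -0.42 ± 0.02 (edgeR adjusted p = 6.05e-20). MT-ND4, encoded upstream of it on the same strand, rose from 12715 and 13009 to 13810 and 14063 RPKM (0.12 ± 0.02; edgeR adjusted p = 3.74e-07). The groups were separate for both, in opposite directions. MT-ND5 was at 0.366 and 0.365 times the level of MT-ND4 in the controls and at 0.256 and 0.248 times in the VIRMA-overexpressing libraries, and at 0.920 and 0.918 against 0.696 and 0.689 times that of MT-CYB, the next plus-strand mRNA on its other side. Relative to the mitochondrial sum MT-ND5 fell by 0.50 ± 0.03 on the log2 scale (edgeR adjusted p = 4.88e-16), while MT-ND4 had 0.04 ± 0.03 (edgeR adjusted p = 0.168).

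MT-ND6, the only mRNA gene of the minus strand, followed MT-ND5. It had 4591 and 4773 RPKM in the controls and 3480 and 3487 RPKM in the VIRMA-overexpressing libraries, a log2 fold change of -0.43 ± 0.02 (edgeR adjusted p = 1.32e-17). Its per-length level was 0.988, 1.01, 0.986 and 1.00 times that of MT-ND5 in the 4 libraries, so the genes on opposite sides of the border shown above had levels close to equal in every library. MT-ND6 differs from the other mRNA genes in composition, with 35.6% G against 6.3% to 16.2% in the 12 plus-strand mRNAs. The kit was stranded, but whether the counting used strand is not given in the sources used here, so RNA of MT-ND6 and plus-strand RNA running across it cannot be told apart.

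The other complex I mRNAs had smaller differences. MT-ND2 rose from 3783 and 3970 RPKM to 4084 and 4174 RPKM (log2 fold change 0.09 ± 0.02; edgeR adjusted p = 6.90e-04), a call lost relative to the mitochondrial sum (edgeR adjusted p = 0.654) and without control replicate 1 (edgeR adjusted p = 0.0711). MT-ND1 had 2986 and 3057 RPKM in the controls and 2977 and 2942 RPKM in the VIRMA-overexpressing libraries, with a log2 fold change of -0.03 ± 0.02 (edgeR adjusted p = 0.242). Its direction and call depended on the processing: MT-ND1 was called lower relative to the mitochondrial sum (-0.11; edgeR adjusted p = 2.54e-03) and with each of the 3 other filters on low counts (-0.07 to -0.06), positive but not called with upper-quartile factors, and called higher with library totals (0.06; edgeR adjusted p = 0.0245). MT-ND3 and MT-ND4L had log2 fold changes of 0.05 ± 0.05 and 0.02 ± 0.03 (edgeR adjusted p = 0.376 and 0.439), both negative relative to the mitochondrial sum and both past the threshold, as higher, when scaled by upper quartiles or by totals. MT-ND3 differed more between replicates than between groups: it had 4628 and 5871 RPKM in the controls and 5118 and 5765 RPKM in the VIRMA-overexpressing libraries. Its log2 fold change was -0.114 without control replicate 1 and 0.233 without control replicate 2, both past the threshold.

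In complex IV, whose 3 mitochondrial subunits form its core, 2 mRNAs rose and 1 fell. MT-CO1 had 23280 and 23160 RPKM in the controls and 26480 and 25811 RPKM in the VIRMA-overexpressing libraries (log2 fold change 0.17 ± 0.02; edgeR adjusted p = 4.78e-12). MT-CO2 had 19321 and 21724 RPKM and then 22356 and 23623 RPKM (0.16 ± 0.03; edgeR adjusted p = 4.22e-06), with control replicates almost as far apart as the groups; under DESeq2 its adjusted p was 0.116. MT-CO3 went the other way, from 8280 and 8024 RPKM to 7114 and 7541 RPKM (-0.15 ± 0.02; edgeR adjusted p = 3.17e-07). MT-CO1 thus stood at 2.81 and 2.89 times the level of MT-CO3 in the controls and at 3.72 and 3.42 times in the VIRMA-overexpressing libraries.

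Both complex V mRNAs, which are translated from 1 shared transcript, were lower, MT-ATP8 with groups that overlapped. MT-ATP6, the proton channel subunit, had 12868 and 12566 RPKM in the controls and 12171 and 11858 RPKM in the VIRMA-overexpressing libraries. Its log2 fold change of -0.08 ± 0.02 (edgeR adjusted p = 4.55e-04) came to 0.0038 with library totals, and it did not pass without VIRMA-overexpressing replicate 2 (-0.06; edgeR adjusted p = 0.0736). MT-ATP8 had 1320 and 1615 RPKM in the controls and 1332 and 1321 RPKM in the VIRMA-overexpressing libraries. The log2 fold change of -0.15 ± 0.05 (edgeR adjusted p = 5.38e-03) rested on control replicate 2, and without that library it was 0.0061. The call was also lost under DESeq2 (adjusted p = 0.364) and with upper-quartile factors (edgeR adjusted p = 0.143). Per length MT-ATP8 was counted at 0.103 and 0.128 times MT-ATP6 in the controls and at 0.109 and 0.111 times in the VIRMA-overexpressing libraries, although they share a transcript and the 46 bases shown above; how reads that overlap more than one gene were counted is not given in the sources used here.

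Complex III showed no change past the test. MT-CYB (cytochrome b) had 5055 and 5170 RPKM in the controls and 5073 and 5058 RPKM in the VIRMA-overexpressing libraries. The log2 fold change was -0.01 ± 0.02 (edgeR adjusted p = 0.572). MT-CYB was called higher with upper-quartile factors or library totals (0.06 and 0.07; edgeR adjusted p = 9.97e-03 and 1.52e-03). It was called lower relative to the mitochondrial sum (-0.09; edgeR adjusted p = 6.06e-03), with no filter (-0.05; edgeR adjusted p = 0.0257) and with filterByExpr (-0.06; edgeR adjusted p = 0.0105).

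**Figure D3:**
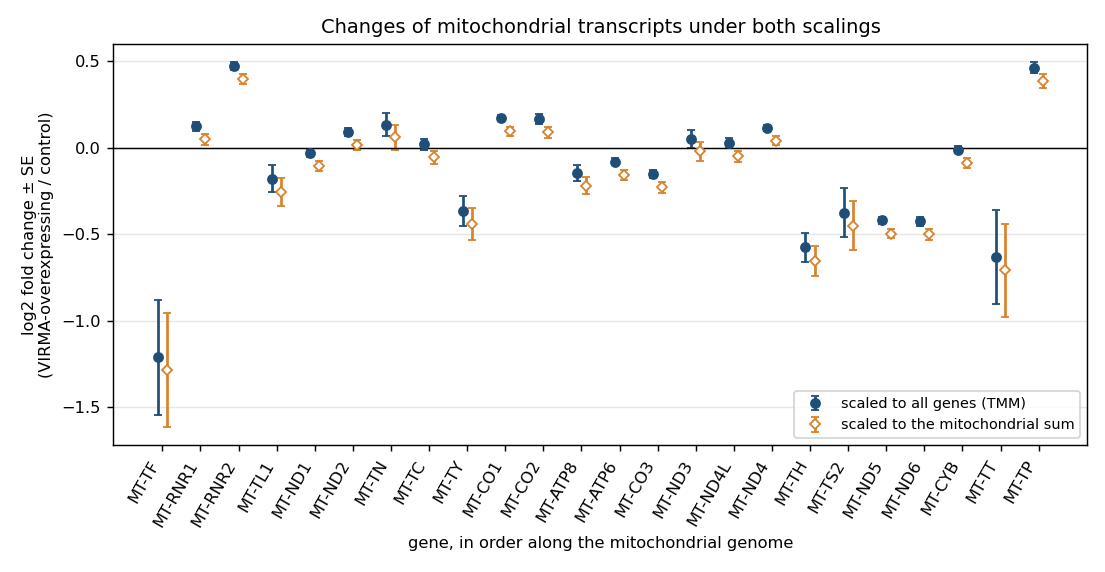
Points give the log2 fold change ± SE of VIRMA-overexpressing against control for the rRNAs, the mRNAs and 9 tRNAs in genome order; filled circles are scaled to all genes by TMM and open diamonds to the summed mitochondrial counts. MT-RNR2 and MT-TP lie near 0.47 and 0.46 with TMM, MT-ND5 and MT-ND6 near -0.42 and -0.43, most other mRNAs near 0, and MT-TF lies lowest at -1.21 with a wide SE.

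The tRNA genes carried few counts, in separate ranges. Only 3 of the 22, MT-TP (tRNA-Pro), MT-TC (tRNA-Cys) and MT-TN (tRNA-Asn), had more than 10000 counts in a library, from 14727 to 27396. The other 19 had 12 to 1718 counts. All 3 are on the minus strand, as are 8 of the 22. They also border stretches that belong to no gene: a gap of 31 bases separates MT-TN from MT-TC, and MT-TP lies next to the noncoding control region, 546 bases of which follow it to the end of the reference. Genes with few counts border such stretches too. MT-TF, on the other side of the control region, had 36 to 109 counts. MT-TK, named after its values were seen, follows a gap of 25 bases and had 97 to 113 counts. The sequences of MT-TP, MT-TC and MT-TN are shown because most tRNA counts fell on them, together with 2 tRNAs whose counts fell. All are given 5′ to 3′ on the gene's own strand.
MT-TP (chrM:15956-16023, minus): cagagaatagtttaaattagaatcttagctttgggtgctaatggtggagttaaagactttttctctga
MT-TC (chrM:5761-5826, minus): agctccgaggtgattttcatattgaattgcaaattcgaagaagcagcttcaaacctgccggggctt
MT-TN (chrM:5657-5729, minus): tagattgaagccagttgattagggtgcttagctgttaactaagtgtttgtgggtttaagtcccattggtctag
MT-TF (chrM:577-647, plus): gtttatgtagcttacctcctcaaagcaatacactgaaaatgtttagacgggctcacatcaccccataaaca
MT-TH (chrM:12138-12206, plus): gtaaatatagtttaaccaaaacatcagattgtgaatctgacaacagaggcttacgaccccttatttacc

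Of the tRNA genes with many counts, only MT-TP changed past the test. It had 18589 and 18965 counts in the controls, against 27396 and 25055 in the VIRMA-overexpressing libraries, a log2 fold change of 0.46 ± 0.03 (edgeR adjusted p = 5.55e-15), and the groups were far apart. MT-TC had 17963, 18365, 18642 and 18702 counts in the same order (0.02 ± 0.03; edgeR adjusted p = 0.585), with a sign that turned relative to the mitochondrial sum or with any of the 3 other filters on low counts. MT-TN had 14727 and 19572 counts in the controls, against 17312 and 20776 in the VIRMA-overexpressing libraries, and its difference of 0.13 ± 0.07 was smaller than that between replicates (edgeR adjusted p = 0.0771). MT-TN was at -0.058 without control replicate 1, not called, and at 0.347 without control replicate 2, called as higher. Scaled by upper quartiles or by totals, MT-TC and MT-TN both passed the test as higher.

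Of the 19 tRNA genes with fewer counts, 6 were lower and 13 did not pass, a share lower no larger than the 35.9% of all genes tested, and their summed counts were 8971 and 8142 in the controls, against 8236 and 6685 in the VIRMA-overexpressing libraries. MT-TH (tRNA-His) fell from 1718 and 1494 counts to 1166 and 1019 (log2 fold change -0.58 ± 0.08; edgeR adjusted p = 1.29e-07). MT-TY (tRNA-Tyr) fell from 1524 and 1305 counts to 1219 and 1011 (-0.36 ± 0.09; edgeR adjusted p = 3.99e-04). In both the groups were separate. MT-TL1 (tRNA-Leu) went from 1332 and 1334 counts to 1272 and 1117 (-0.18 ± 0.08; edgeR adjusted p = 0.0455) and lost its call without either control replicate and without VIRMA-overexpressing replicate 2 (edgeR adjusted p = 0.0979, 0.0934 and 0.359), and under DESeq2 (adjusted p = 0.0848).

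MT-TF (tRNA-Phe), the first gene after the control region, was the only mitochondrial gene past the 2-fold threshold, and it rested on few reads. It had 97 and 109 counts in the controls, against 36 and 54 in the VIRMA-overexpressing libraries, a log2 fold change of -1.21 ± 0.33 (edgeR adjusted p = 1.61e-03). Without VIRMA-overexpressing replicate 1 the value was -0.93 and did not pass (edgeR adjusted p = 0.053). MT-TS2 and MT-TT, named after their values were seen, completed the tRNAs that fell, at -0.38 ± 0.14 and -0.63 ± 0.27 (edgeR adjusted p = 0.0185 and 0.0372). MT-TS2 went from 446 and 479 counts to 401 and 322, and MT-TT from 134 and 129 to 99 and 73; each lost its call without control replicate 2 (-0.33 and -0.67) or without VIRMA-overexpressing replicate 2 (-0.24 and -0.45), MT-TT also without control replicate 1 (-0.61).

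The genes that lead from MT-ND4 into MT-ND5 abut without a gap, and their values differed from one to the next. In order, MT-ND4 rose (0.12), MT-TH and MT-TS2 fell (-0.58 and -0.38), MT-TL2, also named after its values were seen, had -0.04 ± 0.16 (edgeR adjusted p = 0.819), and MT-ND5 fell (-0.42). Reads that cross such borders can belong to more than one gene, and their part in these values was not tested.

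**Figure D4:**
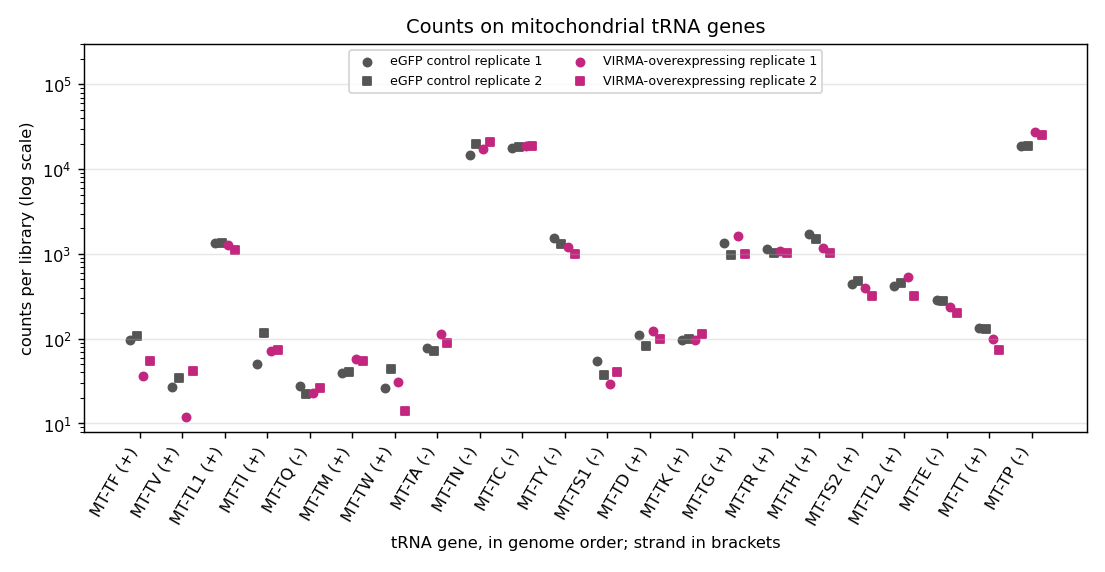
Each point is the count of a tRNA gene in a library, on a log axis, in genome order with the strand in brackets; grey is eGFP control, pink VIRMA-overexpressing, circles replicate 1 and squares replicate 2. MT-TN, MT-TC and MT-TP stand above 10000 counts in every library and the other 19 genes at 1718 or below.

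Nuclear copies of mitochondrial genes, which differ in how alike they are to the originals and can share reads with them where alike, held few counts beside the originals. Of 405 such rows 112 had a count and 11 were tested. The copy with the most counts was MTATP6P1 on chromosome 1, with 25966 and 36633 counts in the controls, against 24415 and 34906 in the VIRMA-overexpressing libraries, or 3.60%, 5.17%, 3.47% and 5.22% of the counts of MT-ATP6. MTCO1P12 stood at 0.346% and 0.479% of MT-CO1 in the controls and at 0.351% and 0.461% in the VIRMA-overexpressing libraries. Both copies were higher in replicate 2 of each group, and the groups overlapped (edgeR adjusted p = 0.371 and 0.0854). Of the other copies named by count, MTND2P28 was lower (log2 fold change -0.37 ± 0.12; edgeR adjusted p = 8.47e-03), and MTND4P12 and MTCO2P12 had -0.08 ± 0.17 and 0.08 ± 0.18 (edgeR adjusted p = 0.677 and 0.705). MTRNR2L12, a nuclear copy of MT-RNR2 named after its value was seen, was the 1 copy that was higher (0.66 ± 0.27; edgeR adjusted p = 0.0284), at a mean of 1.10 CPM with eGFP and 1.74 CPM with VIRMA, where MT-RNR2 had 5744 and 7967 CPM.

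The nuclear-encoded subunits of the same 4 complexes, which assemble with the products of the mitochondrial mRNAs, were mostly lower. Of 70 tested, 58 were lower, 4 higher and 8 did not pass, beside 35.9% of all genes tested lower and 35.1% higher. The median log2 fold change of the nuclear subunits was -0.34, against -0.01 for the mitochondrial mRNAs and 0.01 for all genes tested, and single values ran from -0.84 to 0.62. In complex I 26 of 35 were lower, in complex III 8 of 9, in complex IV 11 of 11 and in complex V 13 of 15. The median stayed between -0.42 and -0.26 under every scaling, filter and tool tried.

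The 4 subunits given first are those that fell the most in each complex. The median log2 fold changes were -0.27 for complex I, -0.34 for complex III, -0.40 for complex IV and -0.36 for complex V. NDUFA2 of complex I went from 144 and 134 CPM in the controls to 79.2 and 76.2 CPM (log2 fold change -0.84 ± 0.04; edgeR adjusted p = 4.14e-20). COX6B1 of complex IV went from 457 and 481 to 308 and 324 CPM (-0.57 ± 0.03; edgeR adjusted p = 6.91e-18), beside the mitochondrial complex IV mRNAs MT-CO1 and MT-CO2 that rose. ATP5G1, which encodes the ring subunit of ATP synthase, went from 104 and 103 to 60.6 and 62.7 CPM (-0.75 ± 0.04; edgeR adjusted p = 1.04e-18), and UQCRFS1, the Rieske protein of complex III, from 164 and 165 to 105 and 111 CPM (-0.60 ± 0.04; edgeR adjusted p = 2.42e-17). In all 4 genes both VIRMA-overexpressing libraries lay below both controls. These genes were chosen by the size of their change, and the groups did not overlap for 84.3% of all genes tested. Among subunits that went the other way, NDUFA13 had 0.85 and 0.74 RPKM in the controls and 1.14 and 1.31 RPKM after VIRMA overexpression. NDUFA13 passed the filter on low values only through the VIRMA-overexpressing libraries. The 4 subunits that were higher, NDUFS1, NDUFV3, NDUFA11 and NDUFA13, all belong to complex I, had log2 fold changes of 0.09 to 0.62, and were named after their values were seen; without VIRMA-overexpressing replicate 2 the count higher was 2.

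Nuclear genes often used as measures of mitochondrial content were lower too. Of 8 such genes 7 were lower and 1, the import receptor TOMM20, did not pass (-0.02 ± 0.03; edgeR adjusted p = 0.531), beside 35.9% of all genes tested, with a median of -0.53. The import genes TOMM22 and TOMM40 fell by 0.75 ± 0.04 and 0.74 ± 0.03 on the log2 scale (edgeR adjusted p = 1.41e-18 and 1.75e-21), and the matrix enzyme citrate synthase (CS) from 215 and 211 to 148 and 143 CPM (-0.55 ± 0.03; edgeR adjusted p = 4.71e-17). Of 8 regulators of mitochondrial biogenesis tested, 5 were higher and 2 lower, beside 35.1% and 35.9% of all genes tested, with a median of 0.17 that was 0.11 without control replicate 1. NRF1, a transcription factor for nuclear genes of the respiratory chain, rose from 24.3 and 25.7 to 41.1 and 41.5 CPM (0.72 ± 0.06; edgeR adjusted p = 7.94e-14), and GABPA, which encodes another (NRF-2), rose by 0.44 ± 0.08 (edgeR adjusted p = 3.80e-06). The biogenesis regulators and the genes of mitochondrial content therefore had medians of opposite sign.

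The nuclear genes that copy, transcribe, cut, tail, modify and translate mitochondrial RNA went both ways. Of 73 tested in 6 lists, 19 were higher, 31 lower and 23 did not pass, where 35.1% of all genes tested were higher and 35.9% lower, with a median of -0.07 that became 0.0047 with upper-quartile factors and 0.02 with library totals. Among 8 transcription genes 3 were higher, the MTERF family members MTERF2 (0.60 ± 0.10; edgeR adjusted p = 1.06e-06), MTERF3 (0.46 ± 0.16; edgeR adjusted p = 8.76e-03) and MTERF4 (0.42 ± 0.07; edgeR adjusted p = 7.48e-07), with MTERF3 at 0.40 and not called without VIRMA-overexpressing replicate 2. The elongation factor TEFM was lower (-0.36 ± 0.17; edgeR adjusted p = 0.0479), though not without control replicate 1 (-0.19) or VIRMA-overexpressing replicate 2 (-0.15) and not with DESeq2, limma-voom, upper-quartile factors or library totals. Also lower was TFAM, which packs the mitochondrial genome and starts its transcription and was named after its value was seen (-0.25 ± 0.05; edgeR adjusted p = 1.71e-05). POLRMT had 6816 and 6931 counts with eGFP and 6852 and 7119 with VIRMA, with a difference of 0.0036 ± 0.04 (edgeR adjusted p = 0.941), also named after its value was seen.

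Of 5 genes that cut and finish tRNAs, 4 were tested. HSD17B10 and TRMT10C, subunits of the enzyme that cuts the tRNA 5′ end, fell by 0.63 ± 0.04 and 0.37 ± 0.08 (edgeR adjusted p = 7.23e-18 and 4.33e-05), and ELAC2, which cuts the 3′ end, fell by 0.33 ± 0.04 (edgeR adjusted p = 1.44e-09). TRNT1, which adds the CCA end to tRNAs, rose by 0.50 ± 0.07 (edgeR adjusted p = 2.31e-07). Thus 3 of the 4 tested were lower and 1 higher, beside 35.9% and 35.1% of all genes tested. KIAA0391 (PRORP), the other gene of the list, did not pass the filter on low values and was not tested. With no filter it had -0.40 (edgeR adjusted p = 0.0675). In the list of polyadenylation, stability and decay, 4 of 16 were higher and 7 lower, beside the same 35.1% and 35.9% of all genes tested. MTPAP, the mitochondrial poly(A) polymerase that makes the tails, rose from 12.1 and 13.7 to 17.0 and 15.7 CPM (0.34 ± 0.08; edgeR adjusted p = 5.05e-04). PTCD2 rose by 0.40 ± 0.09 (edgeR adjusted p = 2.90e-04). At 0.75 and 0.78 RPKM in the controls, PTCD2 passed the filter on low values only through the VIRMA-overexpressing libraries. The FASTK family members FASTKD5 and TBRG4, which bind mitochondrial RNA, fell by 0.40 ± 0.05 and 0.37 ± 0.03 (edgeR adjusted p = 1.11e-09 and 4.72e-13).

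The remaining lists were mixed as well, and their counts stand beside 35.1% of all genes tested higher and 35.9% lower. Of 19 enzymes and factors that modify rRNA and tRNA, 4 were higher and 8 lower. MRM2 and MRM3, both of which methylate the large rRNA encoded by MT-RNR2, fell by 0.50 ± 0.04 and 0.27 ± 0.09 (edgeR adjusted p = 2.30e-12 and 6.38e-03) while that rRNA rose; MRM3 was at -0.22 and not called without control replicate 2. TRUB2, a pseudouridine synthase, fell by 0.47 ± 0.05, and GTPBP3, a tRNA-modifying GTPase, by 0.33 ± 0.05 (edgeR adjusted p = 1.92e-11 and 3.20e-07). Of 13 translation and membrane insertion genes, 5 were higher and 6 lower. C12orf65, among those higher and named after its value was seen, had 0.92 RPKM in each control. C12orf65 passed the filter on low values only through the VIRMA-overexpressing libraries. The elongation factors TUFM and TSFM fell by 0.48 ± 0.03 and 0.52 ± 0.06 (edgeR adjusted p = 4.21e-17 and 4.05e-10), MTFMT, which formylates the initiator tRNA, fell by 0.54 ± 0.12 (edgeR adjusted p = 1.38e-04), and the initiation factor MTIF3 rose by 0.44 ± 0.07 (edgeR adjusted p = 2.74e-06). Of 13 genes of mitochondrial DNA replication and maintenance tested, 2 were higher and 5 lower, with POLG2, the accessory subunit of the DNA polymerase, at 0.51 ± 0.07 and ATAD3A, a nucleoid-associated membrane ATPase, at -0.53 ± 0.04 (edgeR adjusted p = 1.63e-07 and 8.39e-14).

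**Figure D5:**
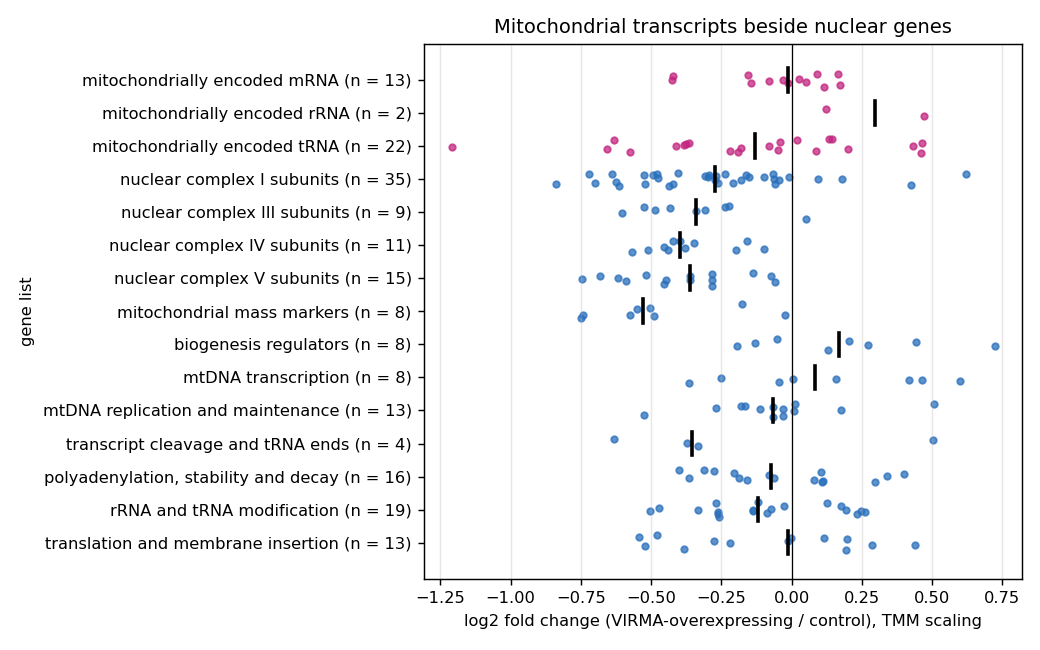
Points give the log2 fold change (VIRMA-overexpressing against control, TMM scaling) of each tested gene, with pink for the 3 classes of mitochondrially encoded genes and blue for 12 lists of nuclear genes, and black bars for medians; vertical scatter within a list has no meaning. The nuclear subunits of the respiratory complexes lie mostly left of 0 (median -0.34 over the 4 lists), the mitochondrially encoded mRNAs around 0 (median -0.01).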

How the data were processed

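The authors trimmed reads with Trimmomatic 0.39, mapped them to hg38 with STAR 2.5.2a and counted them per gene with featureCounts, as the study's methods and the submitters' processing notes state. The deposited table gives raw counts for 56271 genes with their exonic lengths; strand use and the handling of reads with several alignments are not given in the sources used here. The columns taken as VIRMA-overexpressing bear a number instead of the group, and are the only ones besides the controls. No per-sample column was left unused.

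Tests covered the 12205 genes whose RPKM exceeded 1 in 2 or more libraries, so that a gene could pass through the libraries of either group alone. They used edgeR 4.0.16 (quasi-likelihood, TMM scaling; R 4.3.3) with no term besides group, and p-values were adjusted over these genes by Benjamini-Hochberg; called means an adjusted p below 0.05. CPM and RPKM given are relative to the counts on tested genes after TMM. The SE is the log2 fold change divided by the square root of F. Replicates are biological duplicates by the study's methods, p-values rest on the spread shared across genes (biological coefficient of variation 3.93%), and replicates differed by more than counting noise (chi-square per degree of freedom 5.08 and 4.31 over all rows, 369 and 176 over the mitochondrial genes). On simulated counts for this comparison over 12205 genes, 91% of genes changed 2-fold and 73% of those changed 1.3-fold were recovered, with 0 unchanged genes called. The simulation changed 100 genes of each size, whereas 35.1% of genes tested were called higher and 35.9% lower here. It used a spread shared across genes, so it does not speak for the mitochondrial genes, whose replicates differed more beside counting noise.

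The genes and the lists were chosen with earlier results of these data known. Named were all mRNAs and rRNAs, the 6 tRNAs with the highest CPM and any past 2-fold, up to 4 called genes per list by size of change, and the 5 nuclear copies with the most counts. Sequences were read from GRCh38. The alternatives were DESeq2 1.42.0, limma-voom (limma 3.58.1), 5 scalings besides TMM, 3 low-count filters, a replicate block and leaving out each library.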

Additional observations from a re-analysis of the deposited data

How the results depend on the processing

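Of the 24 mitochondrial genes followed across settings, 8 (MT-RNR2, MT-CO1, MT-CO3, MT-ND5, MT-ND6, MT-TH, MT-TY and MT-TP) kept their direction and call under each of the 11 alternatives and without each library. With library totals 13 mitochondrial genes were higher and 6 lower, and with upper-quartile factors 12 and 6; these scalings moved all genes up by a median of 0.0857 and 0.0715. The median log2 fold change of the mRNAs was then 0.0724 and 0.0582, that of the rRNAs 0.384 and 0.369, and that of the tRNAs with library totals -0.04349. Single genes that turned were MT-ND1 (0.0559 and 0.0417), MT-CYB (0.0724 and 0.0582) and, with library totals, MT-ATP6 (0.0038), and the median of the expression machinery turned to 0.019 and 0.0047. Relative to the mitochondrial sum, which moved all genes by -0.0761, 4 were higher, the medians were -0.0892 (mRNA), 0.222 (rRNA) and -0.2056 (tRNA), and MT-ND3 (-0.0221), MT-ND4L (-0.0503) and MT-TC (-0.0562) turned. With no filter, filterByExpr or a minimum of 10 counts per library, the mRNA median was -0.0477, -0.057 and -0.043, the rRNA median 0.263, 0.254 and 0.268, MT-ND4L -0.0099, -0.0189 and -0.0049, and MT-TC -0.0145, -0.0238 and -0.0099. With the fold threshold of the study 0 were higher, as the highest log2 fold change was 0.47, and 1 was lower. The mitochondrial share differed by 3.49 percentage points of summed RPKM in place of 1.34 of counts. DESeq2 gave 6 higher and 8 lower. The causes of these changes were not tested. Apart from TMM and the mitochondrial sum, the share of all genes called under a setting is not given here. Whether a changed count is particular to the mitochondrial genes was therefore not tested.

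Leaving out a library gave 7 to 10 genes higher, 7 to 12 lower, an mRNA median of -0.0512 to 0.0061 and an rRNA median of 0.269 to 0.322; MT-ND3 ranged from -0.114 to 0.233, MT-ND4L from -0.0511 to 0.0996, MT-TN from -0.058 to 0.347, MT-CYB from -0.034 to 0.0026 and MT-ATP8 from -0.288 to 0.0061.

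A replicate block in the fit gave 9 mitochondrial genes higher and 12 lower, and MT-ND3 and MT-TN passed the test (edgeR adjusted p = 1.13e-03 and 1.29e-06). The share of all genes called in that fit is not given here either. Same-numbered libraries deviated together with a correlation of 0.035 over all tested genes and 0.515 over the mRNAs; with 2 pairs the samples share only a number.

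Depth limits mainly the tRNAs, of which 19 had 12 to 1718 counts.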
